A study of Mus musculus with 10 samples.

Results

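The regions described here were called in 2 mock chromatin immunoprecipitations, in which an antibody against MyoD or against Myf5 was used on cells that lack both proteins. They were chosen by list, as every autosomal region of the MyoD mock and of the Myf5 mock. These are 1915 of the 241128 regions in the 7 deposited lists, with 766 from the MyoD mock and 1149 from the Myf5 mock. A further 176 and 210 mock regions lay on the X chromosome and were not compared.

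All groups were mouse embryonic fibroblasts of the genotype MyoD-/-; Myf5-/-, which the submitters call M&M MEF cells. Both mocks came from such cells carrying a lentiviral green fluorescent protein (GFP), one with the MyoD antibody 6975 and one with the Myf5 antibody Sc-302x (lot CO612). The MyoD and Myf5 lists (each 2 replicates joined, by their titles) came from cells carrying lentiviral MyoD or Myf5 and used the same antibodies. In every group the move to differentiation medium followed 24 h after infection, and harvest came after 20 h in it. Mock and factor chromatin was fixed with formaldehyde for 11 min and sonicated. Acetylated histone H4 (H4Ac) was precipitated from native chromatin, cut with micrococcal nuclease, of cells carrying GFP, MyoD or Myf5, with the antibody 39925. The series also holds 3 input samples, which have no list among the 7 and were not used here. Whether the fibroblasts came from 1 or several embryos is not given in the sources used here. The lists hold regions and no expression, so neither the genotype nor the cell type could be checked from them.

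Both MyoD and Myf5 are transcription factors of the basic helix-loop-helix class and direct cells into the skeletal muscle lineage. A mock precipitation shows where sequenced fragments pile up although the target protein is absent, which is the level against which a factor's peaks are read. H4Ac marks nucleosomes of accessible and active chromatin. The comparison asks which background regions the MyoD and Myf5 antibodies share, which belong to one precipitation, and where this background meets the factor and H4Ac lists.

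Each mock has 1 list, so no spread between replicates is known and no test was run. Shares carry exact (Clopper-Pearson) 95% binomial intervals and medians carry exact 95% order-statistic intervals. Both cover counting error only, and neighbouring regions are not independent. Strength is the authors' maximum coverage in a region, and the cutoff is the coverage the authors required in its bin of GC content. The cutoffs were 18 to 20 in the MyoD mock and 31 to 32 in the Myf5 mock. The library depth is unknown and the headers name no scaling to it, so strength is compared between the mocks only as coverage divided by the region's own cutoff. Positions are in the mouse build mm9.

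Counted by region and with any overlap, the MyoD mock lay largely within the Myf5 mock, while most Myf5 mock regions were not in the MyoD mock. Of the 766 MyoD mock regions, 490 shared at least 1 bp with a Myf5 mock region (64.0%, 60.5 to 67.4). Of the 1149 Myf5 mock regions, 396 shared at least 1 bp with a MyoD mock region (34.5%, 31.7 to 37.3). These shares depend on what is counted. With neighbours up to 100 kb apart counted as 1 run they were 36.7% and 40.9%, in the opposite order, and with centres required within 100 bp they were 24.5% and 16.4%. The Myf5 mock was the longer list in total extent, with 1521 kb covered against 687.1 kb. The regions shared 525.3 kb, which is 76.5% of the sequence covered by the MyoD mock and 34.5% of that covered by the Myf5 mock. Merged into one map, the lists gave 1399 separate regions: 370 in both, 276 in the MyoD mock only and 753 in the Myf5 mock only.

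Regions of one mock often lay close to the other mock without touching it, and this differed between the 2 mock lists. Of the 753 regions found in the Myf5 mock only, 336 had a MyoD mock region within 10 kb (44.6%, 41.0 to 48.3), and 464 had one within 100 kb (61.6%, 58.0 to 65.1). Of the 276 regions found in the MyoD mock only, 33 had a Myf5 mock region within 10 kb (12.0%, 8.37 to 16.4), and 59 had one within 100 kb (21.4%, 16.7 to 26.7). Counted by region, those in the MyoD mock only were thus more often isolated from the other antibody's background than those in the Myf5 mock only. Many of the latter lie in a few dense runs, so the intervals, which take regions as independent, do not measure this contrast. With both mocks joined into runs, 204 runs held the MyoD mock only, 171 the Myf5 mock only and 127 both.

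The number of regions by chromosome was uneven in both mocks. Chromosomes 1, 5 and 8 held 122, 102 and 109 of the MyoD mock regions. The same chromosomes held 209, 145 and 198 of the Myf5 mock regions. Chromosome 14 set the mocks apart, with 24 MyoD mock regions and 173 Myf5 mock regions. The Myf5 mock had more regions on 11 autosomes and the MyoD mock on 7, among them chromosome 3 with 30 against 16, chromosome 11 with 31 against 16 and chromosome 19 with 16 against 4. By covered length the mocks were close on chromosome 3, with 41.8 kb (MyoD mock) against 44.8 kb. They were also close on chromosome 11, with 89.1 kb against 87.1 kb, while chromosome 19 had 6.87 kb against 2.38 kb. Chromosome 2 held 35 regions in each.

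**Figure D1:**
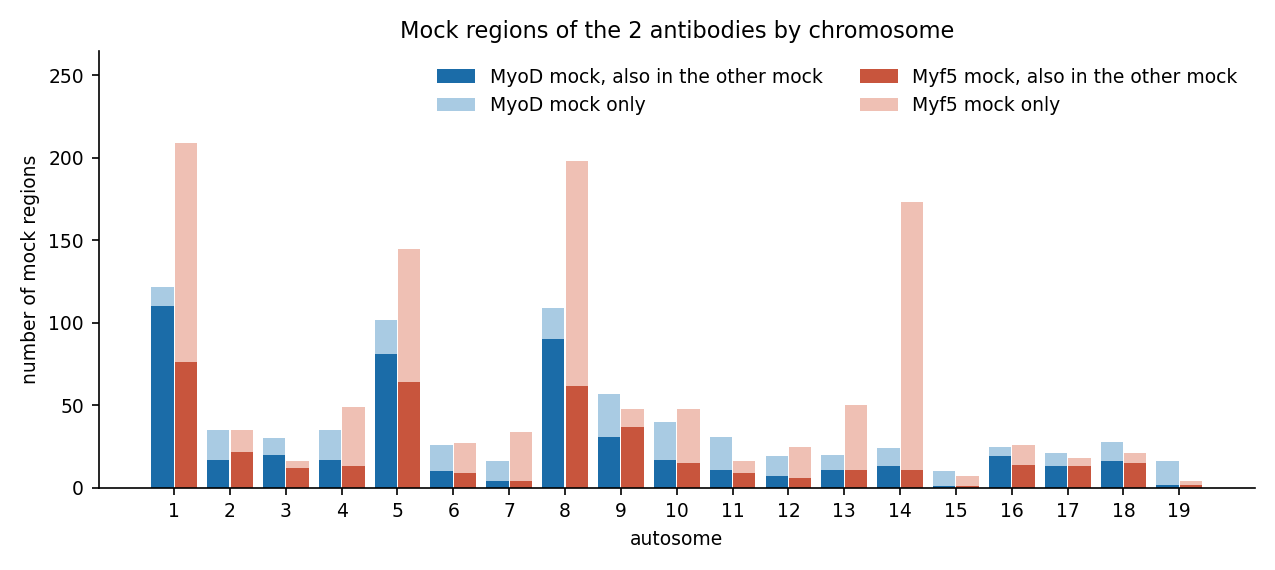
Number of mock regions (vertical axis) on each of the 19 autosomes (horizontal axis), with the MyoD mock in blue and the Myf5 mock in red; the dark part of a bar counts regions that overlap the other mock, and the pale part regions in 1 mock only. Chromosomes 1, 5 and 8 are high in both mocks, and chromosome 14 is high only in the Myf5 mock, where 11 of its 173 regions overlap the MyoD mock.

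The strongest background was common to both antibodies. In each mock the 5 strongest regions found in both were the same 5 places, in a different order. The first was chr2:98506243-98507641, where the MyoD mock had a coverage of 196368 and the Myf5 mock one of 1314902 (over chr2:98506291-98507593). These are 9818 and 41091 times the cutoff. A few kb away, chr2:98502236-98503298 reached 18834 with the MyoD antibody and 125326 with the Myf5 antibody. Between them, chr2:98504886-98505505 reached 6241 and 73508. On chromosome 6, chr6:103598894-103599439 reached 15384 and 92500. On chromosome 9, chr9:35112643-35113329 reached 16332 and 46348, so this place ranked higher among the 5 in the MyoD mock than in the Myf5 mock. Of these 5 places, 4 lay in the bin with the lowest GC content, and the place on chromosome 9 lay in the next bin.

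The regions of 1 mock only were weaker, but some were far above the cutoff. The strongest in the MyoD mock only was chr9:24346308-24346741, with a coverage of 1475, or 73.8 times the cutoff. The nearest Myf5 mock region was 10766 kb away. The next were chr12:75904732-75905643 with a coverage of 576, chr12:68160009-68161030 with 482 and chr16:10975013-10975520 with 410. Each of these 3 was over 100 kb from any Myf5 mock region. The fifth, chr9:3034026-3034406 with a coverage of 394, lay 0.44 kb from one.

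In the Myf5 mock only, the strongest region was chr9:3003356-3003690, with a coverage of 1443, and a MyoD mock region lay 0.138 kb away. The second, chr2:181747379-181748052, had a coverage of 644 and lay 80.0 kb from the nearest MyoD mock region. The third, chr10:106922265-106923091, had a coverage of 284 and lay 1147 kb away. The fourth, chr8:19926266-19926782, had a coverage of 274 and lay 0.221 kb from a MyoD mock region. The fifth, chr4:126265572-126266021, had a coverage of 213 and lay 2426 kb from one. The strongest regions of the Myf5 mock only thus included 2 that adjoin background of the other antibody and 2 that are over 1 Mb from it.

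Over the whole lists, regions in both mocks were stronger and wider than regions in 1 mock, and the gap was larger in the Myf5 mock. In the MyoD mock the median coverage was 30 (28 to 31) for regions in both mocks and 25 (24 to 26) for regions in 1 mock. Relative to the cutoff these medians are 1.54 and 1.29. In the Myf5 mock the median coverage was 100 (93 to 106) in both mocks and 43 (41 to 44) in 1 mock, or 3.16 and 1.34 times the cutoff. Regions in 1 mock were therefore about as close to the cutoff in either list. At least 2 times the cutoff was reached by 34.7% of MyoD mock regions in both mocks and by 17.0% of those in 1 mock. For the Myf5 mock these shares were 72.2% and 20.1%.

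Far above the cutoff, nearly all Myf5 mock regions were shared. At 10 times the cutoff or more, 48 Myf5 mock regions were in both mocks and 2 in 1 mock. In the MyoD mock the numbers were 30 and 6. Widths followed the same order, with a median of 608 bp (559 to 646) in both mocks against 420 bp (386 to 447) in 1 mock for the MyoD mock. For the Myf5 mock the median widths were 931 bp (826 to 1106) and 613 bp (578 to 653). A wider region has more room to overlap another one, and its part in these shares was not tested.

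When each list was divided by strength into 5 classes of nearly equal size, the share in both mocks depended on strength mainly in the Myf5 mock. From the weakest to the strongest class it was 10.4%, 12.6%, 22.3%, 41.7% and 85.2% of Myf5 mock regions. In the MyoD mock it was 55.2%, 52.9%, 66.7%, 62.7% and 82.4%. Among the strongest regions the lists were thus alike, and they parted among the weak ones. The weakest class of the MyoD mock had an interval of 47.0 to 63.2, above the 6.80 to 15.1 of the weakest Myf5 mock class. Of the 100 regions with the highest coverage, 81 of the MyoD mock and 92 of the Myf5 mock were in both.

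**Figure D2:**
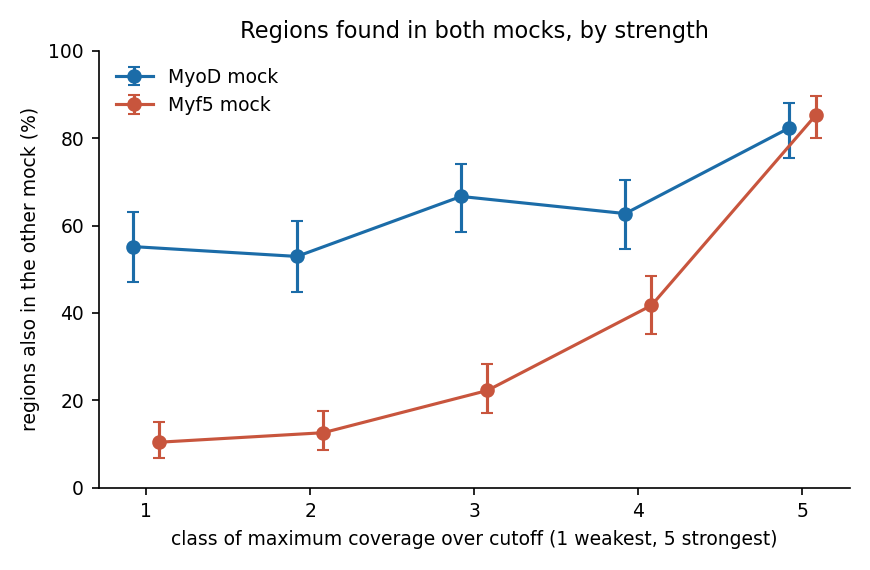
Share of regions that overlap the other mock (vertical axis, percent) in 5 classes of maximum coverage over cutoff (horizontal axis, weakest to strongest), for the MyoD mock in blue and the Myf5 mock in red; bars are exact 95% binomial intervals. The Myf5 mock goes from 10.4% to 85.2%, and the MyoD mock from 55.2% to 82.4%.

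The 490 and 396 shared regions formed 516 overlapping pairs. Over these pairs the Spearman rank correlation of coverage between the mocks was 0.588, as a description, since pairs share sequence and position and many are neighbours. It was 0.581 over the 373 pairs in dense runs of at least 5 MyoD mock regions and 0.647 over the other 143. Relative to the cutoff, the Myf5 mock was the higher one in 429 pairs (83.1%), with medians of 3.22 in the Myf5 mock and 1.55 in the MyoD mock. A Myf5 mock region enters these values again for each MyoD mock region it overlaps, with the maximum over its whole width. How far this changed the values was not tested. The overlap covered a median of 100% of the MyoD mock region and 50.0% of the Myf5 mock region. The MyoD mock region therefore usually sat inside a wider Myf5 mock region. In 63 cases a Myf5 mock region held several MyoD mock regions, up to 8, and 22 MyoD mock regions held several Myf5 mock regions.

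**Figure D3:**
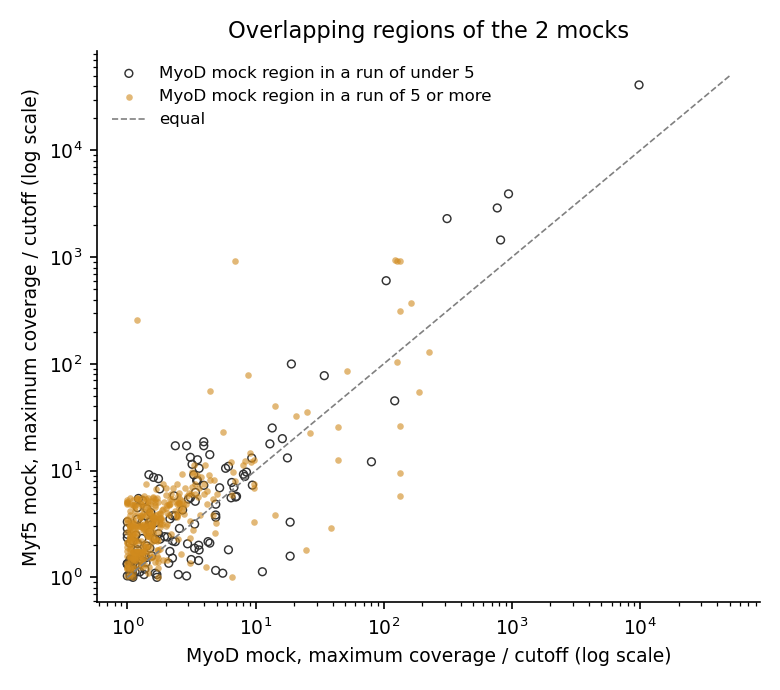
Maximum coverage divided by cutoff in the MyoD mock (horizontal axis, log scale) and in the Myf5 mock (vertical axis, log scale) for the 516 overlapping pairs of regions; filled points are pairs whose MyoD mock region lies in a run of 5 or more, open points the others, and the dashed line marks equal values. Of the pairs, 429 lie above the line.

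Both mocks had a smaller share of GC-rich regions than the factor and H4Ac lists. They were not set against the GC content of the genome. The authors placed each region in 1 of 5 bins of GC content. The lowest bin, up to 40% GC, held 24.9% (21.9 to 28.2) of MyoD mock regions and 25.2% (22.7 to 27.8) of Myf5 mock regions. It held 14.8% of MyoD peaks, 13.6% of Myf5 peaks and 13.02% to 19.01% of H4Ac peaks. Above 50% GC lay 6.79% of MyoD mock and 4.09% of Myf5 mock regions, while 16.7% of MyoD and 15.1% of Myf5 peaks did. The cutoff of the factor lists and of the H4Ac lists went up with GC content, while that of the mocks went down slightly, so the bins were not called alike. Between the mocks the lowest bin was equally filled, within counting error. Regions above 50% GC made up 7.07% (4.75 to 10.1) of the shared and 2.52% (1.53 to 3.91) of the unshared Myf5 mock regions. In the MyoD mock the shares were 8.37% (6.07 to 11.2) and 3.99% (2.01 to 7.02), with overlapping intervals.

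Mock regions were strongly clustered along the chromosomes. In the MyoD mock 59.4% of regions (55.8 to 62.9) had a neighbour of the same list within 10 kb, and in the Myf5 mock 76.5% (73.9 to 78.9). Among as many of the strongest MyoD and Myf5 peaks, the shares were 5.48% (3.98 to 7.34) and 5.57% (4.32 to 7.06). The median gap to the nearest region was 2.21 kb for MyoD mock regions and 0.49 kb for Myf5 mock regions. For the strongest MyoD and Myf5 peaks it was 521.7 kb and 341 kb.

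Regions in the MyoD mock only mostly stood alone on the chromosome, while those in the Myf5 mock only, counted by region, did not. Many of the latter lie in a few dense runs, and the intervals take regions as independent, so they do not measure this contrast. Of MyoD mock regions in both mocks, 81.0% (77.3 to 84.4) had a neighbour of their list within 10 kb, but 21.0% (16.4 to 26.3) of those in the MyoD mock only. The median gap was 0.469 kb for the first and 1123 kb for the second. Of Myf5 mock regions, 81.6% (77.4 to 85.3) of those in both mocks and 73.8% (70.5 to 76.9) of those in the Myf5 mock only had such a neighbour. Their median gaps were 0.207 kb and 0.781 kb.

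**Figure D4:**
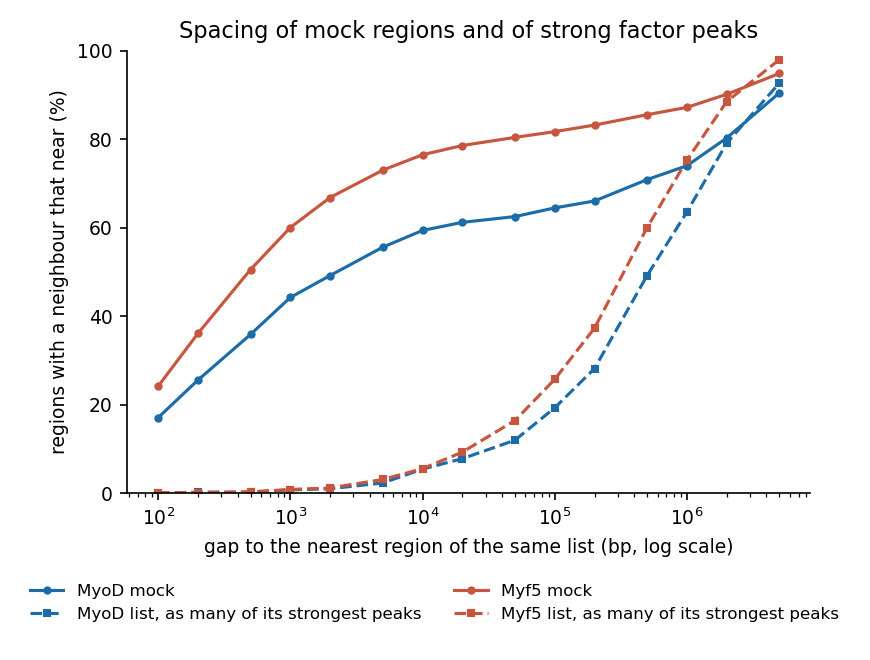
Share of regions (vertical axis, percent) whose nearest neighbour in the same list lies within a given gap (horizontal axis, bp, log scale), for the MyoD mock (blue) and Myf5 mock (red) as solid lines and for as many of the strongest peaks of each factor list as dashed lines. At 10 kb the mocks stand at 59.4% and 76.5%, and the factor peaks at 5.48% and 5.57%.

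Joining neighbours up to 100 kb apart gave 332 runs in the MyoD mock, of which 272 were lone regions, and 298 in the Myf5 mock, of which 210 were lone. The 20 MyoD mock runs with at least 5 regions held 395 regions (51.6%), and the 32 such runs of the Myf5 mock held 789 (68.7%). In these runs 90.1% (86.8 to 92.9) of MyoD mock regions were also in the Myf5 mock, against 36.1% (31.2 to 41.2) of the other MyoD mock regions. For the Myf5 mock the shares were 33.8% (30.5 to 37.3) in runs and 35.8% (30.9 to 41.0) elsewhere. The overlap of the MyoD mock with the Myf5 mock was thus mostly an overlap within dense runs.

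The 3 runs with most regions were the same 3 places in both mocks and held 201 (26.2%) of the MyoD mock and 396 (34.5%) of the Myf5 mock regions. The first was chr8:19684025-20036828, which is 352.8 kb long. It held 84 MyoD mock regions, 83 of them shared, with coverages from 19 to 101 and a median of 30.5. It held 164 Myf5 mock regions, 55 of them shared, with coverages from 32 to 365 and a median of 64. Myf5 mock regions covered 45.4% of its length and MyoD mock regions 17.5%, so the run was dense in both and fuller in the Myf5 mock.

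The second run, chr5:14899790-15220435, was 320.6 kb long. All of its 66 MyoD mock regions were shared, with coverages from 20 to 79 and a median of 28. Of its 118 Myf5 mock regions 50 were shared, with coverages from 31 to 241 and a median of 75.5. No H4Ac peak of any of the 3 lists lay in it. The third run, chr1:84959287-85343737, was 384.5 kb long and also held no H4Ac peak. Of its 51 MyoD mock regions 50 were shared, with coverages from 19 to 83 and a median of 27. Of its 114 Myf5 mock regions 39 were shared, with coverages from 32 to 173 and a median of 55.5. In all 3 runs coverage was moderate and the number of regions high, unlike the strongest places on chromosomes 2, 6 and 9.

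When the mocks were joined into runs together, 502 runs resulted: 127 held regions of both mocks, 204 of the MyoD mock only and 171 of the Myf5 mock only. Of the 14 runs with at least 20 regions, 13 held at least 1 region of each mock. Their numbers ran from equal, with 30 of each in chr9:2999849-3038406, to very unequal. For example, chr14:6030511-6277363 held 27 Myf5 mock regions and 1 MyoD mock region, while chr1:90107907-90207608 held 10 and 27. In that run on chromosome 1 the fewer Myf5 mock regions covered more of the length, 95.5% against 79.4% for the MyoD mock. Of runs with at least 10 regions, 3 belonged to the Myf5 mock only and 0 to the MyoD mock only. Outside the rule for naming regions, several runs are described from here on that were chosen after their values were seen.

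At the start of chromosome 9, chr9:2999849-3038406 was short and very strong. It held 30 regions in each mock, of which 23 (MyoD mock) and 28 (Myf5 mock) were shared. Coverage had a median of 232.5 and a maximum of 4525 for MyoD mock regions, and a median of 945.5 and a maximum of 29986 for Myf5 mock regions. In each mock 29 of the 30 regions lay in the lowest GC bin. The run chr1:90107907-90207608 was the opposite kind, broad and weak. There 27 MyoD mock regions covered 79.4% of the length and 10 Myf5 mock regions covered 95.5%, with median coverages of 23 and 48.

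Chromosome 14 held many Myf5 mock regions and few MyoD mock regions. Its 173 Myf5 mock regions had a median coverage of 42, or 1.31 times the cutoff, and a maximum of 277. Of them 11 were shared. Of the 24 MyoD mock regions on this chromosome 13 were shared, at a median coverage of 26. The Myf5 mock regions were concentrated, with 123 of the 173 starting below position 10 Mb and 124 lying in 6 runs of at least 10 regions. The MyoD mock had 6 regions below 10 Mb. In chr14:7690815-7888571 there were 30 Myf5 mock and 2 MyoD mock regions. In chr14:6030511-6277363 there were 27 and 1, and in chr14:43940366-44109336 there were 21 and 0.

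Weak regions are less often shared, so the regions on chromosome 14 were also set beside others of like strength. Under 1.5 times the cutoff, 2 of 117 Myf5 mock regions on chromosome 14 were shared (1.71%, 0.208 to 6.04). On chromosomes 1, 5 and 8 together 18 of 182 were (9.89%, 5.97 to 15.2), and on the other autosomes 45 of 229 (19.7%, 14.7 to 25.4). From 1.5 to under 2 times the cutoff, chromosome 14 had 0 of 25 shared, chromosomes 1, 5 and 8 had 29 of 114, and the others 16 of 45. From 2 to under 3 times, the counts were 2 of 19, 49 of 127 and 20 of 34. At 3 times or more they were 7 of 12, 106 of 129 and 102 of 116. The share on chromosome 14 was the lowest of the 3 at each strength, with overlapping intervals in some bands. Chromosome 14 was picked for its many Myf5 mock and few MyoD mock regions, so a low share was largely set by that choice. Most of its Myf5 mock regions are also neighbours in runs, which the intervals leave out, so these counts test nothing.

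A run on chromosome 13 and a stretch of chromosome 10 were other places of Myf5 mock background with little in the MyoD mock. In chr13:12897481-13060390 there were 28 Myf5 mock regions and 4 MyoD mock regions. The Myf5 mock regions there had coverages of 32 to 46 and covered 64.8% of the run, against 1.59% for the MyoD mock. On chromosome 10, the 5 Mb window with most Myf5 mock regions at least 2.5 kb wide was searched for. It held 11 Myf5 mock regions and 3 MyoD mock regions of any width. Of the 11, 8 were that wide, with 2720 to 9337 bp, and lay between positions 114060125 and 117170352. Their coverages were 31 to 36, at most slightly over the cutoff. None of the 8 was shared with the MyoD mock. These 8 were picked by width and place and do not stand for the chromosome, which held 48 Myf5 mock and 40 MyoD mock regions. Over all autosomes 47 Myf5 mock regions were at least 5 kb wide, with strengths of 1 to 25.1 times the cutoff, and 32 of them were shared. Of the 31 among them under 2 times the cutoff, 16 were shared. The MyoD mock had 10 regions of that width, at 1.11 to 13.5 times the cutoff, and all 10 were shared, including the 5 under 2 times the cutoff.

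The first Mb of the chromosomes was rich in mock regions, counted from the first listed position on each chromosome. It held 89 MyoD mock regions (11.6%, 9.44 to 14.1) and 90 Myf5 mock regions (7.83%, 6.35 to 9.54), where the MyoD list had 0.778% and the Myf5 list 0.822% of its peaks. Of the regions at 10 times the cutoff or more, 18 of the 36 in the MyoD mock and 26 of the 50 in the Myf5 mock lay there, but most of these belonged to the run at the start of chromosome 9. Of the regions in the first Mb, 74.2% of the MyoD mock and 68.9% of the Myf5 mock were shared. That run holds 30 regions of the first Mb in each mock, of which 15 (MyoD mock) and 21 (Myf5 mock) were at 10 times the cutoff or more. Without it the first Mb held 59 MyoD mock regions (8.02%, 6.16 to 10.2) and 60 Myf5 mock regions (5.36%, 4.12 to 6.85), with 3 and 5 at 10 times the cutoff or more. Their median strengths were then 1.67 and 1.51 times the cutoff, beside 1.42 and 1.58 over the whole lists. Of these 59 MyoD mock regions, 15 lay in the run chr11:3000132-3100339 and 13 in the run chr16:3231520-3351325. Each of these 2 runs held 6 of the Myf5 mock regions. The last Mb held 26 MyoD mock regions (3.39%, 2.23 to 4.93) and 15 Myf5 mock regions (1.31%, 0.732 to 2.14), against 1.03% and 0.967% of factor peaks.

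No region of either mock overlapped a peak of its own factor's list, where counts of 0 of 766 and 0 of 1149 allow shares of up to 0.392% and 0.261% at 3 counts of the total, and of up to 0.480% and 0.321% by the exact interval. The control coverage in the factor lists ends where the mock cutoffs begin, so this absence does not measure the background at factor peaks, and only the other factor's list can be read. Of MyoD mock regions, 9 overlapped a Myf5 peak (1.17%, 0.539 to 2.22), and of Myf5 mock regions 45 overlapped a MyoD peak (3.92%, 2.87 to 5.21). Seen from the factor lists, the 9 Myf5 peaks are 0.00978% of that list and the 45 MyoD peaks are 0.102% of theirs. By comparison, 97.5% of MyoD peaks overlapped a Myf5 peak and 45.9% of Myf5 peaks a MyoD peak. The Myf5 list covers 3.27% of the autosomal span and the MyoD list 1.35%.

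These overlaps belonged almost wholly to regions of 1 mock. All 9 MyoD mock regions in the Myf5 list were absent from the Myf5 mock, and 0 of the 490 shared regions were in that list, which allows a share of up to 0.612% at 3 counts of the total and 0.750% by the exact interval. Of the 45 Myf5 mock regions in the MyoD list, 42 were among the 753 in the Myf5 mock only and 3 among the 396 in both. As neither factor list meets its own mock, a region in both mocks had little room to appear in either list.

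Several of the 45 coincided with the strongest MyoD peaks, although the mock coverage there was low. The first was chr4:129505207-129506047, with a Myf5 mock coverage of 40. The MyoD peak on it had a coverage of 2028, the highest of that list, and its control coverage was 3. The second was chr2:127469437-127470150, with a mock coverage of 45, a MyoD coverage of 1470 and a control coverage of 11. The third was chr13:12955301-12958263, in the run on chromosome 13, with 38, 992 and 17. The fourth was chr18:34163761-34164149, with 31, 730 and 6. The fifth was chr2:166129429-166129876, with 31, 617 and 4. By coverage these 5 peaks ranked 1, 4, 11, 54 and 109 in the MyoD list. The mock values of 31 to 45 all lay close to the cutoff of 31 to 32, and the cells lacked MyoD by genotype.

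The other overlaps lay at ordinary MyoD peaks. Over all 45 the median MyoD coverage was 47, against 49 for the whole list. The control coverage of these peaks had a median of 10, against 5 for the list. Of the 45 regions, 21 lay in Myf5 mock runs of at least 10 regions, where the control median was 14. Another 16 were lone regions, with a control median of 9. At peaks on Myf5 mock regions the control of the MyoD list was thus higher than usual, while staying at or below 20.

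In the MyoD mock the 9 overlaps were scattered, and 6 were lone regions. The first was chr5:33538453-33538830, with a MyoD mock coverage of 21, a Myf5 peak of 861 and a control coverage of 18. The second was chr12:86959070-86959433, with 43, 363 and 18. The third was chr5:33071462-33071932, with 26, 108 and 11. The fourth was chr2:57481892-57482270, with 26, 62 and 28, and the fifth chr18:31784438-31785055, with 36, 58 and 14. By coverage the first of these peaks ranked 477 and the second 3817 in the Myf5 list. The median control coverage of the 9 was 12, against 11 for the list.

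Within 10 kb of mock regions the mean control coverage was above that of the list in both factor lists, by more in the MyoD list. The 107 MyoD peaks within 10 kb of a MyoD mock region had a mean control coverage of 6.82, and the 73 MyoD peaks near a Myf5 mock region only had 7.27. The mean of the list was 4.98. The medians were 5 and 6, against 5 for the list. For the Myf5 list, the 172 peaks near a Myf5 mock region had a mean of 12.4, and the 148 near a MyoD mock region only had 11.2, against 10.8 over the list. The medians of the Myf5 list did not differ, at 11 and 11 against 11 over the list.

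Few mock regions met H4Ac peaks, and the shares were like each other in the mocks. Of MyoD mock regions, 16 overlapped a peak of any H4Ac list (2.09%, 1.20 to 3.37), and of Myf5 mock regions 32 did (2.79%, 1.91 to 3.91). For comparison, 21.8% of MyoD peaks and 16.6% of Myf5 peaks overlapped one. The mocks came from cells carrying GFP. With H4Ac in those cells, 14 MyoD mock regions (1.83%) and 22 Myf5 mock regions (1.91%) overlapped. With H4Ac in cells carrying MyoD the counts were 11 and 28, and in cells carrying Myf5 they were 13 and 23. The H4Ac lists cover 0.535%, 0.497% and 0.609% of the autosomal span in cells with GFP, MyoD and Myf5. All 3 H4Ac lists were met by 9 MyoD mock regions and by 17 Myf5 mock regions. Regions in both mocks and in 1 mock did not differ beyond counting error, at 2.45% and 1.45% in the MyoD mock and 3.03% and 2.66% in the Myf5 mock.

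The strongest of these places were the same in both mocks. At chr11:3051953-3074970 the MyoD mock reached 175, and the Myf5 mock reached 389 over chr11:3051971-3080320. The H4Ac coverage there was 757 with GFP, 498 with MyoD and 594 with Myf5, with control coverages of 183, 153 and 163. At chr17:3081409-3083014 the mocks reached 85 and 251. The H4Ac coverages were 401, 376 and 546, and the controls 131, 130 and 122. At chr19:61275468-61275886 the mocks reached 83 and 204. The H4Ac coverages were 108, 95 and 101, and the controls 12, 29 and 18. The H4Ac peak was thus high in all 3 cell populations at each place, and so was its control.

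The median over the overlapping H4Ac peaks showed the same. Control coverage at H4Ac peaks on MyoD mock regions had medians of 22, 28 and 20 with GFP, MyoD and Myf5, and on Myf5 mock regions 12, 12.5 and 14. The median over each whole H4Ac list was 4. Of the 20 H4Ac peaks with the highest control coverage, 14, 16 and 16 in the 3 lists lay in a mock region. The run on chromosome 8 held 8 H4Ac peaks in cells with GFP, with a median control coverage of 16.5 and a maximum of 62. What the control of the H4Ac lists was is not given in the sources used here.

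Below the level of called regions, the control coverage at listed peaks also differed between chromosomes, with the same highest and lowest chromosome in all 5 lists. Chromosome 10 was the highest in 5 of 5 lists, at 1.23 to 1.26 times the mean of its list, and chromosome 7 the lowest in 5 of 5, at 0.734 to 0.808 times. Chromosome 1 stood at 1.10 to 1.16 times and chromosome 12 at 1.07 to 1.14 times. Other chromosomes differed between the lists: chromosome 18 stood at 1.13 times in the MyoD list and 1.05 times in the Myf5 list, but at 0.994 to 1.01 times in the H4Ac lists. Chromosome 11 ran from 0.867 times in the MyoD list to 0.967 times in the H4Ac list with Myf5. In the MyoD list the mean control coverage was 6.28 on chromosome 10 and 3.86 on chromosome 7, with a list mean of 4.98. In the Myf5 list it was 13.4 and 8.75, with a list mean of 10.8. In H4Ac with GFP it was 5.34 and 3.11.

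The difference ran along the whole chromosomes. In windows of 5 Mb with at least 20 peaks, the mean control coverage on chromosome 10 was above the list mean in 25 of 25 windows of the MyoD list and 26 of 26 of the Myf5 list. On chromosome 7 it was below the list mean in 26 of 26 and 29 of 29. The number of mock regions did not follow this order, since chromosome 10 held 40 MyoD mock and 48 Myf5 mock regions, fewer than chromosomes 1, 5 and 8. Whether any of the 5 controls share a library is not given in the sources used here.

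**Figure D5:**
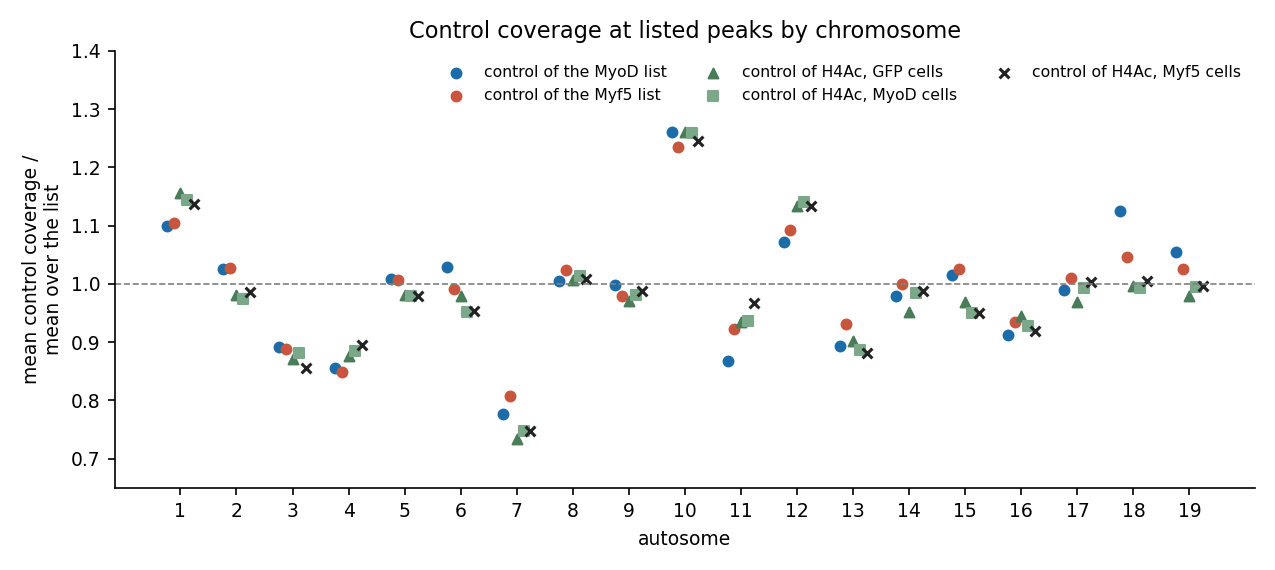
Mean control coverage of the peaks on each autosome divided by the mean over the list (vertical axis, which starts above 0) for the controls of the 2 factor lists and the 3 H4Ac lists (horizontal axis, 19 autosomes); the dashed line marks the list mean. All 5 lists are highest on chromosome 10, at 1.23 to 1.26, and lowest on chromosome 7, at 0.734 to 0.808.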

How the data were processed

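The tools BWA 0.7.5 and CASAVA 1.8.2 are listed, per the submitters' processing notes, beside the genome builds hg19 and mm9. Positions were read as mm9, since the lists are of mouse. The peak caller is not given in the sources used here. The deposited coverage (signal) of a region is its maximum, per the file headers, given in whole numbers and with a cutoff for each of 5 GC bins. Each region has a deposited p-value, at most 8.55e-08 (MyoD mock) or 8.61e-08 (Myf5 mock), which was not used. In the H4Ac list with GFP, 1 control value was a placeholder and was left out.

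From the deposited lists, autosomal regions were overlapped (1 bp or more), joined into runs (gaps up to 100 kb) and counted, with 95% intervals. The overlap step was tested on 1000 simulated regions with 3 planted shares and recovered them with an error of 0 percentage points. Regions named are, in each mock, the 5 strongest in both mocks and the 5 strongest in 1 mock, the 3 runs with most regions, the 5 with the highest other-factor coverage and the 3 strongest in all 3 H4Ac lists. The members and this rule were chosen with earlier results of these data known. Alternatives were another overlap rule, a stricter threshold, lists of equal length, a left-out chromosome, joined regions and, chosen after seeing the data, counting by run, leaving out the 3 largest runs or the run at the start of chromosome 9, and other peaks for the control coverage. No genes or sequences are given, since no annotation or genome of mm9 was used here. Computation used Python 3.11.15 (pandas 2.3.3, numpy 2.4.6, matplotlib 3.10.9, scipy 1.17.1).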

Additional observations from a re-analysis of the deposited data

How the results depend on the processing

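Of 83 alternative values for 23 results, 56 stayed within the counting interval or the set tolerance and 27 moved outside it. The share of MyoD mock regions in the Myf5 mock became 72.4% at 2 times the cutoff or more, 24.5% with centres within 100 bp, 59.3% with lists of equal length, 59.01% without chromosome 1, 52.8% with regions under 1 kb apart joined, 36.7% by run and 51.5% without the 3 largest runs. The share of Myf5 mock regions in the MyoD mock became 16.4% with centres within 100 bp, 46.5% with lists of equal length, 40.9% by run and 41.0% with a gap of up to 500 bp. So the share of the MyoD mock was the higher one in lists of equal length too, and the lower one when runs were counted. With a gap of up to 500 bp, overlap with the other factor's list became 2.35% (MyoD mock) and 5.66% (Myf5 mock), overlap with H4Ac 3.66% and 4.18%, and the median strength of shared Myf5 mock regions 2.87 times the cutoff. Without chromosome 1, shared MyoD mock regions had a median of 1.62 times the cutoff, 54.97% of MyoD mock regions had a neighbour within 10 kb, the lowest GC bin held 28.4% (MyoD mock) and 29.4% (Myf5 mock), and shared Myf5 mock regions had a median width of 802.5 bp. Neighbours within 100 kb were found for 64.5% and 81.7%. The lowest GC bin held 30.4% of MyoD mock regions at 2 times the cutoff or more and 28.0% of Myf5 mock regions weighted by width. Without the run at the start of chromosome 9, the first Mb held 8.02% (MyoD mock) and 5.36% (Myf5 mock). The alternatives count in another way or keep other regions, and why a value moved was not tested. The control coverage of chromosome 10 was as high under the 3 settings added for it. With 1 list a mock, an antibody cannot be told apart from its library, and the unequal cutoffs and unknown depths limit what the longer Myf5 mock list shows. No paired analysis was possible because each group has 1 list and no result comes from a test.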
